A study of Homo sapiens with 24 samples.

Results

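The same transgene, FOXP1, went with changes of largely different genes in the neuroblastoma lines IMR-32 and CHP-212. RET, which encodes the receptor tyrosine kinase for ligands of the GDNF family, rose 7.85-fold in FOXP1 cells of IMR-32 over GFP cells of that line and did not rise in CHP-212. NPY, which encodes the neurotransmitter peptide neuropeptide Y, rose 4.99-fold in CHP-212 and did not rise in IMR-32. MAP2, which encodes a microtubule-associated protein of dendrites, rose 2.64-fold in IMR-32, and no rise was measured in CHP-212. The quantity described throughout is the line difference: the FOXP1 effect in IMR-32 (mean of FOXP1 arrays minus mean of GFP arrays) minus the FOXP1 effect in CHP-212, on the log2 scale.

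The comparison used 16 of the 24 arrays of the series. They are one-colour Agilent gene expression arrays of total RNA, with 4 groups of 4 arrays: IMR-32 with GFP, IMR-32 with FOXP1, CHP-212 with GFP and CHP-212 with FOXP1. Each group holds 1 array at each of 0, 12, 24 and 72 h of doxycycline. IMR-32 and CHP-212 are established human neuroblastoma lines, and each transgene sits in stable polyclonal cells under a reverse tetracycline transactivator. Cells with a GFP transgene served as the control because the inducible promoter leaks, so 0 h is not a state without transgene. The members are thus arrays, chosen by line, and the lines are those whose FOXP1 probe was higher in FOXP1 than in GFP cells. Every p-value below measures spread between time-point arrays of a culture, not between separately made cultures, so the transgene and the culture that carries it cannot be told apart. In bulk RNA, fewer cells of a type and less RNA per cell cannot be told apart.

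FOXP1 is a forkhead transcription factor, best known as a repressor that binds DNA as a dimer and is needed in the development of B cells, heart, lung and parts of the nervous system. Neuroblastoma arises from the sympathoadrenal lineage of the neural crest, whose cells make catecholamines, respond to RET and neurotrophin ligands and release peptides such as neuropeptide Y. A difference between the lines of this kind, an interaction, asks of each gene whether the transgene moved it by the same amount in both backgrounds.

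The FOXP1 probe itself is a description, since it chose the lines. Levels here and below are log2 signals relative to the 75th percentile of the array. On the IMR-32 arrays it read 1.05, 1.19, 1.39 and 1.18 in GFP cells at 0, 12, 24 and 72 h, and 2.60, 2.76, 2.66 and 2.38 in FOXP1 cells. On the CHP-212 arrays it read 0.77, 1.20, 1.08 and 1.05 in GFP cells and 2.81, 3.28, 3.00 and 2.94 in FOXP1 cells. Each FOXP1 array lay above each GFP array of its line, from 0 h onward. The mean FOXP1 minus GFP difference was 1.40 in IMR-32 and 1.98 in CHP-212.

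Among 31446 probes tested, of 43291 on the array besides control spots, 3645 were called for the line difference (11.6%), meaning a Benjamini-Hochberg adjusted p under 0.05 and a size of at least 1 on the log2 scale. The FOXP1 effect was higher in IMR-32 than in CHP-212 for 1755 of these (5.58%) and lower for 1890 (6.01%). Called higher or lower in IMR-32 refers below to this effect, not to the level of a gene. Which direction had more calls depended on the setting. Leaving out the 72 h FOXP1 array of CHP-212 gave 2249 higher and 2068 lower. Time point within the line as a block gave 2250 higher and 2213 lower. After normexp background correction, in a corrected form described below and chosen after seeing the data, 1070 were higher and 1705 lower. Within the lines, 3281 probes (10.4%) were called for FOXP1 minus GFP in IMR-32, 1746 up and 1535 down. After the corrected normexp 1031 were up and 1073 down in IMR-32, so the direction with more calls there depends on the setting. In CHP-212 1062 probes (3.38%) were called, 645 up and 417 down. Without the 72 h FOXP1 array of CHP-212 that count was 1782, 821 up and 961 down, so the number of calls in CHP-212 and the direction with more of them depend on that array. The share of tested probes with a time-matched ratio of at least 2-fold in CHP-212 dropped from 22.7% at 0 h to 10.8%, 6.33% and 4.46% at 12, 24 and 72 h, against 16.6%, 12.4%, 13% and 14.8% in IMR-32. The FOXP1 array of CHP-212 at 0 h had the lowest 75th percentile of the 16 (397.78), and what causes the trend was not tested.

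Most called line differences were changes of IMR-32. Of the 3645 probes, 2059 were called in IMR-32 and not in CHP-212, 419 in CHP-212 and not in IMR-32, 165 in both lines with opposite signs, 60 in both with the same sign, and 942 in neither line on its own. The absolute effect was larger in IMR-32 for 76.3% of the called probes and for 53.9% of all tested probes. Its median over the called probes was 1.25 in IMR-32 and 0.48 in CHP-212, against 0.29 and 0.27 over all tested probes. The 4 time-matched log2 ratios of IMR-32 did not overlap those of CHP-212 for 3557 of the called probes (97.6%), beside 28.6% of all tested probes. The call rests on the same arrays and selects for such ratios, so this share is a description.

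The probes called in both lines numbered 378, and 213 of them had the same sign. They are 11.5% of the IMR-32 calls, where 3.38% of all tested probes were called in CHP-212, and 35.6% of the CHP-212 calls, where 10.4% of all tested probes were called in IMR-32. Most calls of either line were thus not shared. The share called in both lines, which includes 165 probes with opposite signs, was above the share over all probes. Across all tested probes the effects of the lines had a Pearson r of 0.038 and a Spearman rho of 0.057, given as a description, since probes of the same arrays are not independent. Over the 21170 probes well above background on all 16 arrays the Pearson r was 0.064.

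**Figure D1:**
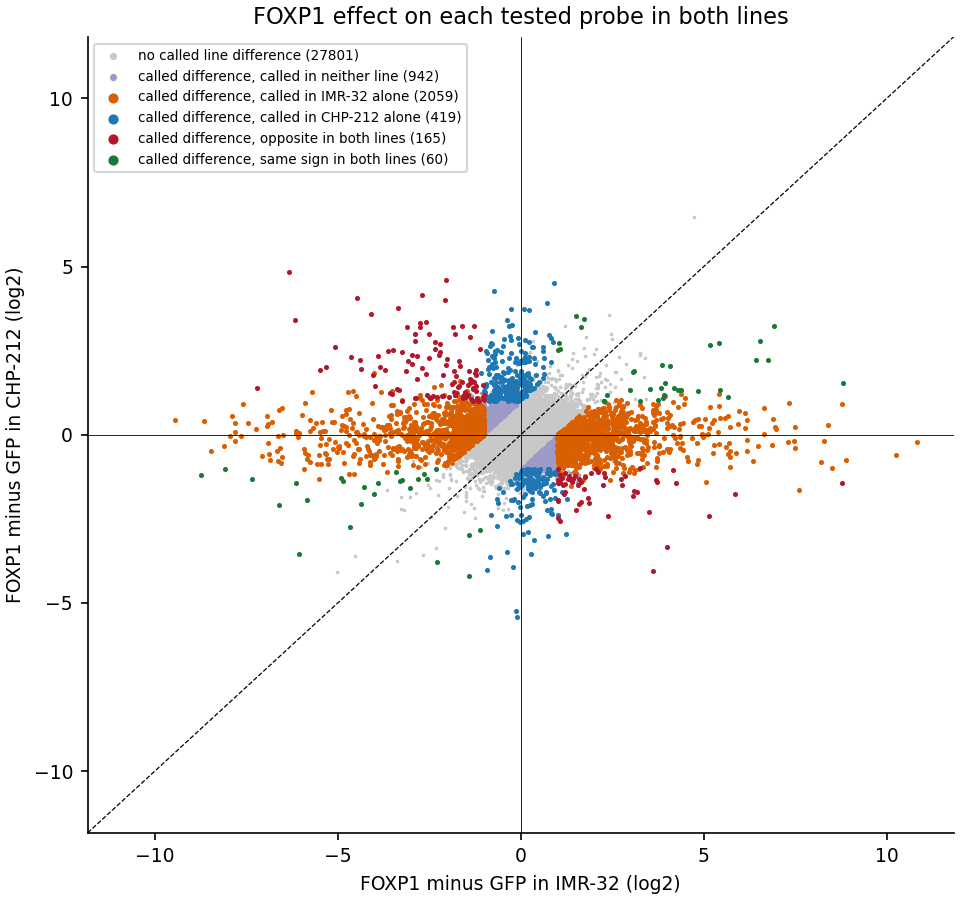
Each point is 1 of 31446 tested probes, with its FOXP1 minus GFP difference (log2) in IMR-32 on the horizontal axis and in CHP-212 on the vertical axis, and colours give the calls. The called line differences lie mostly along the horizontal axis, 2059 of them called in IMR-32 and not in CHP-212, and the dashed line marks equal effects.

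RET was low in IMR-32 and high in CHP-212 before FOXP1 is considered. In IMR-32 its probe (UKv4_A_23_P202245) read -4.34, -3.41, -3.00 and -3.13 in GFP cells at the 4 times and -0.67, -0.49, -1.16 and 0.33 in FOXP1 cells. In CHP-212 the readings were 3.24, 3.28, 4.05 and 3.81 in GFP cells and 2.48, 2.09, 2.96 and 2.81 in FOXP1 cells. Every FOXP1 array of IMR-32 lay above every GFP array of the line, and every FOXP1 array of CHP-212 lay below every GFP array, so the levels of the lines moved toward each other without meeting. The line difference was 3.98 (95% confidence interval 2.97 to 4.99, adjusted p = 1.84e-05). RET rose in IMR-32 by 2.97 (adjusted p = 5.97e-06), while its value in CHP-212, -1.01, missed the threshold (adjusted p = 0.0872), with time-matched log2 ratios of -0.76, -1.19, -1.09 and -0.99, all below 0.

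The MAP2 probe (UKv4_A_24_P231483) read -1.59, -1.52, -1.77 and -2.34 in GFP cells of IMR-32 and -0.20, -0.28, -0.49 and -0.65 in FOXP1 cells. For CHP-212 the values were 0.23, 0.30, 0.62 and 0.62 with GFP and -0.51, -0.14, 0.31 and 0.32 with FOXP1. MAP2 was thus higher in all FOXP1 arrays of IMR-32, while the groups of CHP-212 overlapped, with FOXP1 below GFP at each of the 4 times (log2 ratios -0.74, -0.44, -0.32 and -0.30). The line difference was 1.85 (95% confidence interval 1.19 to 2.51, adjusted p = 0.000572), from 1.40 in IMR-32 (adjusted p = 0.000183) and -0.45 in CHP-212 (adjusted p = 0.252).

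NPY had similar levels in GFP cells of both lines and parted in FOXP1 cells. Its probe (UKv4_A_23_P256470) read -3.89, -3.53, -4.16 and -3.81 in GFP cells of IMR-32 and -4.97, -4.02, -4.94 and -4.53 in FOXP1 cells. In CHP-212 it read -3.99, -4.29, -4.17 and -3.86 with GFP, well above background on 3 of these 4 arrays, and -1.91, -1.95, -1.53 and -1.65 with FOXP1. All FOXP1 arrays of CHP-212 lay above all other arrays of both lines. The line difference was -3.08 (95% confidence interval -3.72 to -2.45, adjusted p = 1.75e-06), and NPY rose in CHP-212 by 2.32 (adjusted p = 4.37e-06). In IMR-32 the value was -0.77, under the size threshold (adjusted p = 0.0157).

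The size of a difference depends on the scale of the signal. In the normexp setting, which starts from spot medians, corrects for local background and adds an offset of 50, the line difference of NPY was -1.71 (adjusted p = 0.124). On the FOXP1 array of IMR-32 at 24 h, 5 spots had local backgrounds far above the spots themselves, up to 27021.5, where the highest on the other 15 arrays was 136, and the normexp background estimate of that array was -579 in place of -3.94. With those 5 backgrounds set to the median of the array, a correction chosen after seeing the data, NPY gave -2.29 (adjusted p = 5.48e-07).

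**Figure D2:**
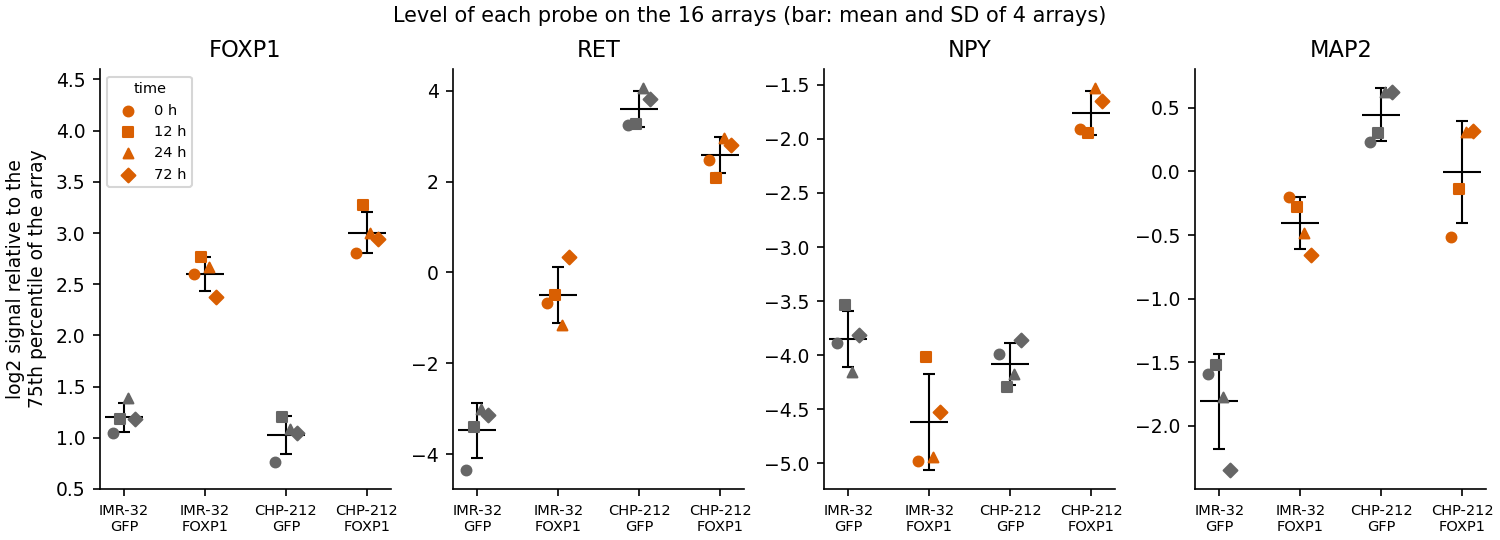
Levels of the FOXP1, RET, NPY and MAP2 probes on each of the 16 arrays (log2 signal relative to the 75th percentile of the array), by group, with markers for time and bars for the mean and SD of 4 arrays. RET and MAP2 are higher in FOXP1 than in GFP cells of IMR-32, NPY in FOXP1 cells of CHP-212, and FOXP1 in the FOXP1 cells of both lines.

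Gene symbols come from the study's own table of changed probes, which names 2063 of the tested probes, so the named genes are a selection in favour of change. Of these 2063 probes 1206 were called for the line difference (58.5%), 566 higher in IMR-32 (27.4%) and 640 lower (31%), with a median line difference of -0.18. The other 2439 called probes carry no symbol here.

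The genes with the highest line differences among probes well above background on all 16 arrays and with no overlap between the ratios of the lines were FAM43B, RGS5, ZNF300, PLCD4, FOXF1, PTPRM, CDYL and PARP8. Their line differences ran from 6.61 down to 4.89. In GFP cells of IMR-32 these probes were low, and in FOXP1 cells they were higher. FAM43B read -6.18, -6.24, -5.83 and -5.10 with GFP and 0.90, 0.97, 0.92 and 0.45 with FOXP1 in IMR-32. Its CHP-212 readings were 0.68, 0.96, 1.20 and 0.92 with GFP and 1.41, 0.74, 1.03 and 0.73 with FOXP1. It rose 100-fold in IMR-32 to about the level that both groups of CHP-212 held (line difference 6.61, adjusted p = 1.16e-09).

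RGS5, a regulator of G protein signalling known as a marker of pericytes, read -2.67, -2.27, -2.26 and -1.77 with GFP and 4.36, 4.59, 4.57 and 5.13 with FOXP1 in IMR-32. The readings in CHP-212 were 4.67, 4.39, 3.61 and 4.41 with GFP and 4.39, 5.66, 3.54 and 5.42 with FOXP1. The groups of CHP-212 overlapped, and those of IMR-32 were far apart, with a rise in IMR-32 of 6.91 (adjusted p = 9.6e-10) and a line difference of 6.42 (adjusted p = 3.69e-07). FOXF1, a forkhead factor of lung and gut mesenchyme, rose 69.5-fold in IMR-32 and differed between the lines by 5.46 (adjusted p = 3.53e-08). PTPRM, a receptor tyrosine phosphatase of cell contacts, rose 62.9-fold (line difference 5.27, adjusted p = 2.38e-08). ZNF300, a KRAB zinc finger gene, rose 50.9-fold, PLCD4, a phospholipase C, 38.2-fold, and CDYL, a chromatin corepressor, 32.5-fold, all in IMR-32. These folds are smaller on the normexp scale, where as planned the IMR-32 value was 4.63 for FAM43B, 6.45 for RGS5, 4.48 for ZNF300, 3.61 for PLCD4, 4.45 for FOXF1, 4.43 for PTPRM and 3.50 for CDYL. In CHP-212 none of FAM43B, RGS5, ZNF300, PLCD4, FOXF1, PTPRM and CDYL was called.

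At the other end stood TBX1, FOXC1, SSTR2, NEUROG2, REC8, DLX4, COL16A1 and THBS4, with line differences from -7.67 to -5.92. TBX1, a T-box factor of pharyngeal development, read -0.40, -0.25, -0.64 and -0.66 with GFP in IMR-32 and -5.63, -4.83, -5.77 and -5.98 with FOXP1. Across the CHP-212 arrays it read -3.23, -3.65, -2.97 and -3.10 with GFP and 0.01, -1.36, -0.43 and -0.78 with FOXP1. The order of the lines was reversed between GFP and FOXP1 cells: TBX1 fell 33.5-fold in IMR-32 (adjusted p = 1.03e-09) and rose 6.06-fold in CHP-212 (adjusted p = 2.38e-05), a line difference of -7.67 (adjusted p = 1.38e-09).

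FOXC1, a forkhead factor of the neural crest and eye, began at similar levels. Its probe read 1.45, 2.09, 1.51 and 1.53 with GFP and -2.81, -2.84, -3.08 and -3.20 with FOXP1 in IMR-32. In CHP-212 the values were 1.76, 1.51, 1.99 and 1.84 with GFP and 4.44, 3.76, 4.08 and 4.01 with FOXP1. All FOXP1 arrays lay outside the range of the GFP arrays, below it in IMR-32 and above it in CHP-212 (line difference -6.93, 95% confidence interval -7.49 to -6.37, adjusted p = 8.78e-11).

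SSTR2, a receptor for somatostatin used in imaging of neuroendocrine tumours, read 2.46, 2.32, 2.12 and 2.07 with GFP and 0.36, -0.02, -0.21 and 0.68 with FOXP1 in IMR-32. The SSTR2 values of CHP-212 were -1.79, -2.30, -3.23 and -2.91 with GFP and 2.59, 1.98, 1.62 and 1.94 with FOXP1. SSTR2 fell 4.11-fold in IMR-32 and rose 24.1-fold in CHP-212, so the line with the higher level changed (line difference -6.63, adjusted p = 1.15e-08). NEUROG2, a proneural basic helix-loop-helix factor, fell 21-fold in IMR-32 and rose 4.63-fold in CHP-212. DLX4, a distal-less homeobox gene, fell 11.1-fold and rose 5.73-fold, and THBS4, which encodes the matrix protein thrombospondin-4, fell 5.97-fold and rose 10.1-fold. REC8, a cohesin subunit of meiosis, fell 135-fold in IMR-32 with a value of -0.64 in CHP-212 that was not called (adjusted p = 0.273). COL16A1, a collagen chain, fell 26.2-fold in IMR-32, and its value of 1.29 in CHP-212 was not called (adjusted p = 0.152). Its time-matched log2 ratios there were 2.37, 1.10, 1.08 and 0.59, all above 0. The falls of all these lead genes in IMR-32, and their line differences, are smaller in size after normexp as planned. The IMR-32 value was then -2.90 for TBX1, -3.83 for FOXC1, -1.99 for SSTR2 and -3.995 for NEUROG2. It was -6.41 for REC8, -1.65 for DLX4, -3.80 for COL16A1 and -1.68 for THBS4.

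**Figure D3:**
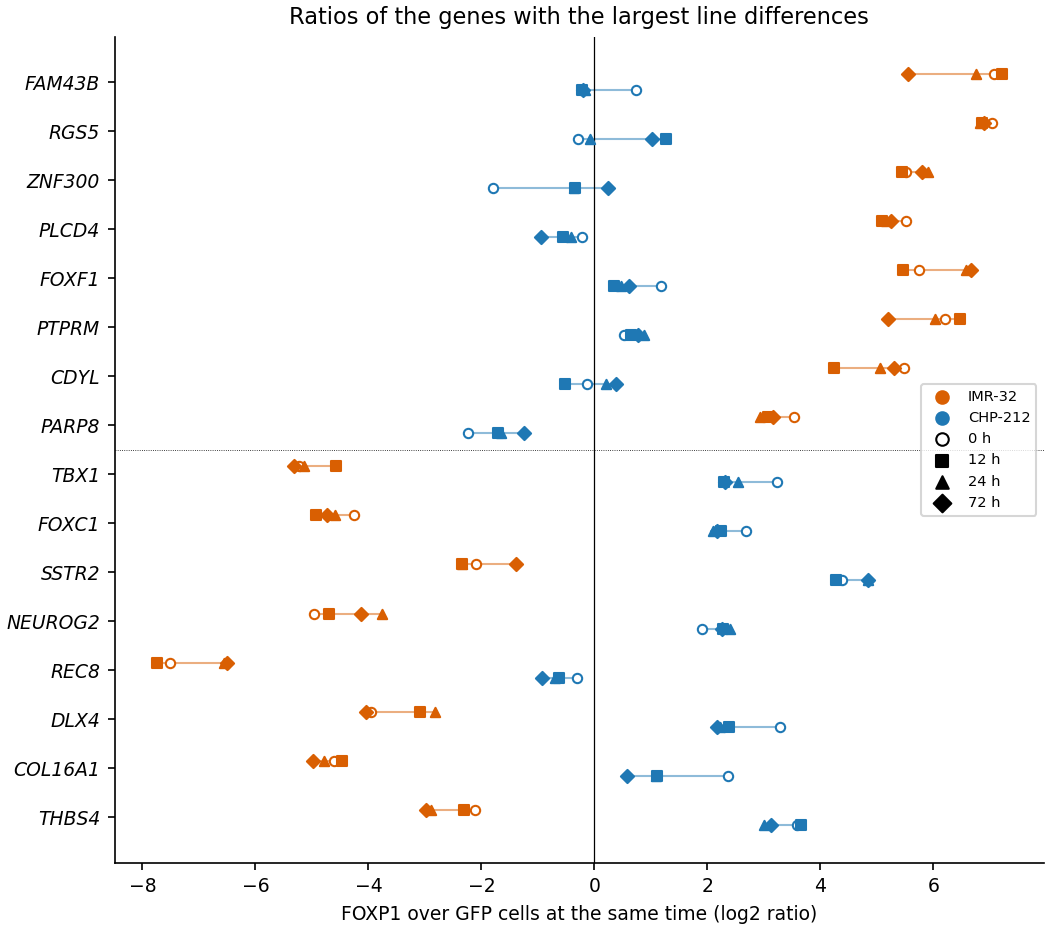
Log2 ratios of FOXP1 over GFP cells at the same time for 16 lead genes, 8 at either end of the line differences, among probes well above background on all 16 arrays, with 1 marker for each time and line. The ratios of the lines do not overlap, as the choice of these genes requires, and TBX1, FOXC1, SSTR2, NEUROG2, DLX4, COL16A1 and THBS4 lie below 0 in IMR-32 and above 0 in CHP-212.

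In 165 probes FOXP1 was called in both lines with opposite signs, 57 up in IMR-32 and 108 down in IMR-32. Where all arrays of a group were too dim for a probe, a fold is given as a lower bound, with each dim array set to the lowest signal well above background on it or, if higher, the probe's own signal. The bound holds on the scale of the processed signal, and normexp gave smaller sizes. The adjusted p beside such a bound comes from the readings as they are, not from the bound. Such a probe passed the filter on signal through the other group of the line, and 237 of the 3645 called probes have a group of this kind. RELN, the secreted glycoprotein reelin that guides migrating neurons, read -8.56, -9.21, -8.10 and -8.30 with GFP in IMR-32, all too dim, and 0.38, -0.29, 0.64 and 0.16 with FOXP1. The RELN values of CHP-212 were 0.30, 0.95, 0.98 and 0.86 with GFP and -1.19, -1.13, -0.50 and 0.12 with FOXP1. RELN was at least 111-fold higher with FOXP1 in IMR-32 (adjusted p = 4.22e-12) and fell 2.73-fold in CHP-212 (adjusted p = 0.00844), for a line difference of at least 8.24 (adjusted p = 1.34e-10). After the corrected normexp the line difference of RELN was 5.72, and after normexp as planned its value in IMR-32 was 4.35.

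IGFBP7, a secreted binding protein of insulin-like growth factors, went the other way. With GFP it read -3.18, -2.67, -2.51 and -1.89 in IMR-32, and with FOXP1 -9.09, -9.13, -8.29 and -9.04, too dim on all 4. The CHP-212 values were -5.51, -5.32, -4.99 and -5.13 with GFP, of which 2 were well above background, and -0.17, -0.37, -0.51 and -0.51 with FOXP1. IGFBP7 was at least 17.4-fold lower with FOXP1 in IMR-32 (adjusted p = 1.39e-11) and 28.8-fold higher in CHP-212 (adjusted p = 1.1e-08), with -1.73 in IMR-32 after normexp as planned.

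DKK1, a secreted Wnt antagonist, read -1.11, -0.89, -1.21 and -1.71 with GFP in IMR-32 and -6.52, -7.26, -8.26 and -7.54 with FOXP1, where 1 of 4 arrays measured it. In CHP-212 it read 0.36, -0.16, -1.26 and -0.82 with GFP and 3.01, 2.76, 2.71 and 3.26 with FOXP1. DKK1 fell in IMR-32 and rose 10.6-fold in CHP-212 (adjusted p of the line difference 1.53e-09). The size of its fall rests on dim readings: the line difference was -9.57 from the readings as they are and -5.79 after normexp background correction. GLI3, a transcription factor of the hedgehog pathway, was at least 47.3-fold lower with FOXP1 in IMR-32 and 2.64-fold higher in CHP-212, where 2 of 4 arrays of each group measured it. After normexp as planned the values of GLI3 were -2.86 in IMR-32 and 0.74 in CHP-212, the latter under the size threshold.

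PARP8, a member of the ADP-ribosyltransferase family, rose 9.04-fold in IMR-32 and fell 3.28-fold in CHP-212 (line difference 4.89, adjusted p = 1.3e-07). HOOK1, a microtubule-linked cargo adaptor, rose 12.3-fold in IMR-32 and was at least 8.18-fold lower with FOXP1 in CHP-212. C10orf30, now named BEND7, rose 57.6-fold in IMR-32 and fell 3.4-fold in CHP-212, where 2 of 4 FOXP1 arrays measured it. After normexp as planned the values of C10orf30 were 4.28 in IMR-32 and -0.62 in CHP-212, the latter under the size threshold.

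Against these stood 153 probes called in both lines with the same sign and without a called line difference, 89 up and 64 down. A missed threshold for the line difference does not show equal effects. FILIP1L rose 5.48-fold in IMR-32 and 7.99-fold in CHP-212, where 3 of 4 GFP arrays measured it (line difference -0.54, adjusted p = 0.696). CDH18, a cadherin, rose 9.54-fold and 5.37-fold (line difference 0.83, adjusted p = 0.201). LOC131873 rose 26.8-fold in IMR-32, where 2 of 4 GFP arrays measured it, and 88.1-fold in CHP-212. Its line difference of -1.72 missed the threshold (adjusted p = 0.0684) and passed it in 7 of the other settings run, among them the fit with slide as a block (adjusted p = 0.0438).

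Downward in both lines were SH3GL3, an endophilin of vesicle endocytosis, which fell 32.3-fold in IMR-32 and 17-fold in CHP-212, and the secreted metalloprotease ADAMTS12, which was at least 2.18-fold lower with FOXP1 in IMR-32 and 13.5-fold lower in CHP-212. In CHP-212 2 of 4 FOXP1 arrays measured each of these probes. RPRML fell 6.34-fold in IMR-32 and 12-fold in CHP-212. KREMEN2, a co-receptor of Dickkopf proteins, fell 4.99-fold and 10.3-fold, with a line difference of 1.05 that missed the threshold (adjusted p = 0.087). For CDH18, SH3GL3 and ADAMTS12 the line difference passed the threshold in the normexp setting with 5 backgrounds set to the median. ADAMTS12 also passed it with quantile normalization (1.02, adjusted p = 0.012) and with the deposited values (1.10, adjusted p = 0.00754), and SH3GL3 from 24 and 72 h alone (-1.74, adjusted p = 0.0251). On leaving out a single array CDH18 (1.11, adjusted p = 0.0414), SH3GL3 (-1.17, adjusted p = 0.0226) and KREMEN2 (1.29, adjusted p = 0.0222) passed it too, so equal size is not shown for these genes. After normexp as planned the IMR-32 value of ADAMTS12 was -0.077, so its fall in both lines was not kept there.

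The gene lists below were chosen with earlier results of these data known, and their counts stand beside the 58.5% of all named probes called, 27.4% higher and 31% lower in IMR-32. After normexp as planned the count of called members changed by a factor of over 1.5 for 15 of the 17 lists, and with probes well above background on all 16 arrays for 13. With the corrected normexp all counts stayed within that factor, though cadherins went from 20 to 15, and medians and directions moved in some lists. Among catecholamine synthesis and storage genes 8 of 11 tested were called, 6 higher and 2 lower in IMR-32, with a median line difference of 1.79, or 1.08 with quantile normalization. TH, the rate-limiting enzyme of catecholamine synthesis, read -1.22, -1.66, -1.46 and -0.29 with GFP and 2.03, 2.33, 1.88 and 2.46 with FOXP1 in IMR-32. The TH values of CHP-212 were 2.69, 2.65, 3.55 and 3.33 with GFP and 3.21, 3.24, 3.43 and 3.26 with FOXP1. TH rose 10.1-fold in IMR-32 and stayed inside the range of the GFP arrays in CHP-212 (line difference 3.11, 95% confidence interval 2.29 to 3.92, adjusted p = 2.74e-05).

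The noradrenaline transporter SLC6A2 rose 8.33-fold in IMR-32 (line difference 3.12, adjusted p = 1.3e-05), and 2 of 4 arrays of each CHP-212 group measured it. CYB561, an electron carrier of the membrane of chromaffin vesicles, rose 9.8-fold in IMR-32 (line difference 3.05, adjusted p = 1.67e-05). CHGB, a granin of secretory vesicles, rose 7.04-fold in IMR-32 (line difference 2.31, adjusted p = 0.000253), with 2 of 4 arrays of each CHP-212 group measuring it. DBH, which converts dopamine to noradrenaline, rose in both lines, 14.5-fold in IMR-32 and 4.19-fold in CHP-212, measured there on 2 GFP and 3 FOXP1 arrays. Its line difference of 1.79 (adjusted p = 0.0216) was not called with quantile normalization (1.08, adjusted p = 0.39), with the deposited quantile-normalized values (1.18, adjusted p = 0.333), without 0 h (2.00, adjusted p = 0.0701), from 24 and 72 h alone (2.29, adjusted p = 0.0719), from 0 and 12 h alone (1.28, adjusted p = 0.08) or without the 72 h FOXP1 array of IMR-32 (1.62, adjusted p = 0.0503).

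Of the noradrenergic markers, TH and RET were well above background on every array of both lines, while CHGB and DBH in CHP-212 were so on part of the arrays, and the table names no probe for PHOX2A. RET and neurotrophin signalling had 6 of 9 tested members called, 4 higher and 2 lower in IMR-32, with a median of 1.48 that was 0.92 after normexp as planned (3 higher, 0 lower) and 0.50 after the corrected normexp. SHC3, an adaptor of neurotrophin receptors, fell 16.2-fold in CHP-212, where 2 of 4 FOXP1 arrays measured it. Its value in IMR-32 of -0.91 was not called (95% confidence interval of the line difference 2.09 to 4.12, adjusted p = 0.000258). After normexp as planned the value of SHC3 in CHP-212 was -2.16, and its line difference was 1.76 (adjusted p = 0.0437). The corrected normexp gave a line difference of 1.42 (adjusted p = 0.0179). GFRA3, the co-receptor for artemin, fell 5.43-fold in IMR-32 (line difference -2.33, adjusted p = 0.0111), with 2 of 4 arrays of each CHP-212 group measuring it. SHC4 had a line difference of -2.12 (adjusted p = 0.023) with neither line called and 3 GFP arrays and 1 FOXP1 array of IMR-32 measuring it, and it missed the threshold without the GFP array of IMR-32 at 0 h (-1.85, adjusted p = 0.052), without that at 12 h (-1.93, adjusted p = 0.0507) and without the GFP array of CHP-212 at 24 h (-1.93, adjusted p = 0.0501). It also missed it with all 24 arrays in 1 fit (adjusted p = 0.0667), from 24 and 72 h alone (adjusted p = 0.0861) and from 0 and 12 h alone (adjusted p = 0.0572).

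Neuropeptides and their receptors leaned lower: 10 of 14 tested were called, 3 higher and 7 lower in IMR-32, with a median of -1.40, and after normexp as planned 2 were higher and 3 lower, with a median of -0.55. NPW, which encodes neuropeptide W, read 1.59, 1.37, 0.68 and 1.09 with GFP in IMR-32 and -5.82, -6.58, -6.86 and -7.26 with FOXP1, where 2 of 4 arrays measured it. Its FOXP1 arrays lay more than 6 log2 units below its GFP arrays, and 2 of 4 arrays measured it in each group of CHP-212 (line difference -7.90, adjusted p = 6.96e-07). GALR1, a galanin receptor, rose 48.9-fold in IMR-32, measured on 2 of 4 GFP arrays there and on 2 of 4 FOXP1 arrays of CHP-212 (line difference 5.98, adjusted p = 2.97e-08). After normexp as planned the value of GALR1 in IMR-32 was 3.45. Its line difference was 3.42 in that setting and 3.37 after the corrected normexp. VIPR1, a receptor for vasoactive intestinal peptide, was at least 5.64-fold lower with FOXP1 in IMR-32 and rose 5.22-fold in CHP-212. The fall in IMR-32 was not kept after normexp as planned (-0.34), and the line difference was -3.19 after the corrected normexp.

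In the neuronal cytoskeleton, growth cone and vesicle list 16 of 27 tested were called (7 higher, 9 lower), with a median of -0.87, a share near that of all named probes. After the corrected normexp the split was 6 higher and 13 lower, and after normexp as planned 4 and 5. TUBB2A, a beta-tubulin of neurons, read 5.85, 5.71, 5.15 and 5.36 with GFP and 4.44, 4.54, 4.02 and 4.12 with FOXP1 in IMR-32. In CHP-212 the values were 3.07, 2.84, 2.29 and 2.28 with GFP and 5.13, 4.42, 4.41 and 3.87 with FOXP1. TUBB2A fell 2.36-fold in IMR-32 and rose 3.57-fold in CHP-212, to similar levels in FOXP1 cells of both lines (line difference -3.08, adjusted p = 1.9e-05).

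TUBB2B, its close relative, rose 3.51-fold in CHP-212, and its value of -0.86 in IMR-32 was under the size threshold (line difference -2.67, adjusted p = 2.62e-06). ELAVL4, a neuronal RNA-binding protein, rose 5.26-fold in CHP-212, measured on 2 GFP and 3 FOXP1 arrays (line difference -3.09, adjusted p = 0.000914; from 0 and 12 h alone -2.54, adjusted p = 0.171). SYT17, a synaptotagmin, fell 2.65-fold in IMR-32 and 18.3-fold in CHP-212 (line difference 2.79, adjusted p = 1.51e-06), measured on 2 of 4 FOXP1 arrays of CHP-212. NEFL, a neurofilament subunit, rose 3.39-fold in CHP-212, and its value in IMR-32 of 0.70 was not called. The line difference of NEFL, -1.06, missed the threshold (adjusted p = 0.178) and passed it with time point within the line as a block (adjusted p = 0.0378) and without the 72 h FOXP1 array of CHP-212 (-1.38, adjusted p = 0.0366).

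Of the homeobox HOX genes, which pattern the body axis, 14 have a probe with a symbol and 3 were tested. The FOXP1 effect was called higher in IMR-32 for all 3, HOXA10 on dim readings. Their median line difference was 1.92, or 1.43 with dim groups at the lowest signal above background and 1.18 after the corrected normexp. HOXC9 read -4.11, -3.72, -3.80 and -3.57 with GFP and 2.06, 2.14, 1.77 and 1.53 with FOXP1 in IMR-32. The HOXC9 values of CHP-212 were -6.51, -6.51, -5.86 and -5.66 with GFP and -4.59, -6.04, -4.48 and -4.97 with FOXP1, and 2 of 4 arrays of each group measured it. HOXC9 rose 51.2-fold in IMR-32 and 2.16-fold in CHP-212 (line difference 4.56, adjusted p = 1.21e-06). After normexp as planned the value of HOXC9 in CHP-212 was 0.77, under the size threshold. HOXD10 rose 2.48-fold in IMR-32 (line difference 1.43, adjusted p = 0.000942; from 24 and 72 h alone 1.23, adjusted p = 0.0634). The level of HOXD10 stayed lower in IMR-32, with means of -2.98 with GFP and -1.67 with FOXP1, against 3.46 and 3.35 in CHP-212. The level of HOXA10 was lower there too, -7.95 with GFP and -6.17 with FOXP1, against -1.45 and -1.59 in CHP-212. HOXA10 was at least 1.32-fold higher with FOXP1 in IMR-32, and its line difference (adjusted p = 0.00198) has a lower bound of 0.55, under the size threshold, so its call rests on dim readings. It was not called in 4 settings, with 0.17 (adjusted p = 0.708) after normexp with the 5 backgrounds set to the median.

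Among lists with more than 3 members tested, extracellular matrix genes leaned most to lower: 25 of 36 tested were called, 4 higher and 21 lower in IMR-32, with a median of -1.74. After normexp as planned 1 was higher and 8 lower, with a median of -0.90, and the cytoskeleton list had a lower median (-1.05). After the corrected normexp 18 of 36 matrix genes were called lower, beside 19 of 37 in the Wnt list below, so this rank depends on the setting. Within the lines, 21 fell and 4 rose in IMR-32, and 2 fell and 10 rose in CHP-212. Of all named probes tested 32.3% fell and 33.3% rose in IMR-32, and 9.11% fell and 15.3% rose in CHP-212. LTBP1, which stores latent TGF-beta in the matrix, fell 3.58-fold in IMR-32 and rose 9.31-fold in CHP-212 (line difference -5.06, adjusted p = 1.46e-07), with 3 of 4 GFP arrays of CHP-212 measuring it. SPON2, a secreted matrix protein, fell 6.44-fold in IMR-32 and rose 3.97-fold in CHP-212 (line difference -4.68, adjusted p = 5.63e-07). COL16A1 and THBS4, described above, belong to the same list.

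Cadherins and protocadherins, the calcium-dependent adhesion molecules, leaned the other way, with 20 of 24 tested called, 17 higher and 3 lower in IMR-32, and a median of 2.00. PCDHB2 read -4.55, -4.93, -4.84 and -5.03 with GFP and 0.33, 0.65, 0.60 and 0.73 with FOXP1 in IMR-32. The PCDHB2 values of CHP-212 were 0.35, 0.34, 0.55 and 0.46 with GFP and 1.87, 1.10, 1.18 and 0.98 with FOXP1. It rose 42.6-fold in IMR-32, and in CHP-212 its value of 0.86 was under the size threshold (line difference 4.56, adjusted p = 5.06e-09).

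PCDHB16, of the same cluster on chromosome 5, rose 43.3-fold in IMR-32 and 2.51-fold in CHP-212, measured there on 2 GFP and 3 FOXP1 arrays (line difference 4.11, adjusted p = 6.83e-08). CDH10 rose 3.31-fold in IMR-32 and fell 3.05-fold in CHP-212 (line difference 3.33, adjusted p = 6.81e-06). PCDH7 was an exception, at least 7.16-fold lower with FOXP1 in IMR-32 and 4.06-fold higher in CHP-212, measured there on 2 GFP and 3 FOXP1 arrays. Its value in IMR-32 was -0.55 after normexp as planned, its line difference -2.43 after the corrected normexp, and its CHP-212 log2 ratio at 0 h -0.81, against the rise at later times. Probes of a protocadherin cluster can share sequence, so its members are not separate evidence.

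Mesenchymal and contractile genes had 20 of 28 tested called, 11 higher and 9 lower, with a median of 0.93, or 0.42 after the corrected normexp. The list therefore split. S100A6, a calcium-binding protein, read -0.99, -0.99, -1.56 and -1.46 with GFP in IMR-32 and -9.10, -8.62, -8.29 and -8.76 with FOXP1, too dim on all 4 FOXP1 arrays. S100A6 was at least 43.2-fold lower with FOXP1 in IMR-32, and its value in CHP-212 of 0.34 was not called (adjusted p of the line difference 1.09e-10). The line difference of S100A6 was -3.79 after the corrected normexp, and its value in IMR-32 was -2.81 after normexp as planned. SNAI1, a repressor of E-cadherin active in epithelial-mesenchymal transition, fell 2.56-fold in IMR-32 and rose 3.09-fold in CHP-212 (line difference -2.98, adjusted p = 7.3e-07). PDLIM1, a PDZ and LIM domain protein of actin fibres, rose 3.11-fold and fell 2.63-fold (line difference 3.03, adjusted p = 1.45e-06).

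Wnt, BMP, TGF-beta and FGF signalling had 28 of 37 tested called, 10 higher and 18 lower in IMR-32, with a median of -1.01, and after normexp as planned 7 were higher and 8 lower, with a median of -0.71. SP5, a transcription factor that is a target of Wnt signalling, read -6.03, -5.37, -5.54 and -5.03 with GFP and 3.24, 3.64, 3.48 and 3.21 with FOXP1 in IMR-32. In CHP-212 it read -5.98, -5.62, -4.78 and -4.93 with GFP and -6.03, -6.05, -5.93 and -6.31 with FOXP1, and 2 of 4 arrays of each group measured it. SP5 rose 473-fold in IMR-32 and stayed low in CHP-212 (line difference 9.64, adjusted p = 7.31e-11). RSPO2, a secreted enhancer of Wnt signalling, was at least 24.6-fold lower with FOXP1 in IMR-32, and its value of -0.78 in CHP-212, measured on 3 of 4 FOXP1 arrays, was not called (adjusted p = 0.0812). FZD1, a Wnt receptor, was at least 20.8-fold lower in IMR-32, with a value of -0.85 in CHP-212 under the size threshold.

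Axon guidance genes split evenly, with 18 of 25 tested called, 9 higher and 9 lower, and a median of -0.87, and after normexp as planned 7 were higher and 3 lower, with a median of -0.26. SLITRK5, a synaptic adhesion protein, was at least 34.5-fold higher with FOXP1 in IMR-32 (adjusted p = 6.97e-12), measured in CHP-212 on 4 GFP and 3 FOXP1 arrays. NTNG1, which encodes netrin-G1, rose 12.4-fold in IMR-32 (line difference 4.01, adjusted p = 3.22e-06), with 2 of 4 arrays of each CHP-212 group measuring it. SEMA3A, a secreted repellent of growing axons, was at least 14.4-fold lower with FOXP1 in IMR-32 and fell 3.85-fold in CHP-212, where 3 of 4 FOXP1 arrays measured it, and its line difference (adjusted p = 0.000696) missed the threshold with quantile normalization (-2.79, adjusted p = 0.0537), with the deposited values (-2.63, adjusted p = 0.075), from 0 and 12 h alone (adjusted p = 0.0925) and after normexp as planned (adjusted p = 0.844).

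Voltage-gated and related ion channels had 18 of 29 tested called, 6 higher and 12 lower, with a median of -0.46. After normexp as planned the split was 3 and 5 and the median 0.02, and with quantile normalization the median was -0.22. KCNK1, a potassium leak channel, read -0.38, 0.11, 0.30 and 0.26 with GFP in IMR-32 and -8.22, -7.48, -8.20 and -8.16 with FOXP1, too dim on all of the latter. KCNK1 was at least 108-fold lower with FOXP1 in IMR-32 and fell 2.02-fold in CHP-212. The line difference of KCNK1 was -3.24 after the corrected normexp and -2.54 after normexp as planned, with -3.63 in IMR-32. CACNA1H, a T-type calcium channel, fell 16.5-fold in IMR-32 (line difference -4.51, adjusted p = 8.73e-07). KCNJ8, a subunit of ATP-sensitive potassium channels, rose 2.86-fold in IMR-32 and fell 4.67-fold in CHP-212, measured on 2 of its 4 FOXP1 arrays there. After normexp as planned the value of KCNJ8 in CHP-212 was -0.52, under the size threshold. Its line difference was then 1.95 (adjusted p = 0.0032), in place of 3.74. CACNG8 had a line difference of 3.15 (adjusted p = 0.0363) (with 3 of 4 arrays measuring it in GFP cells of IMR-32 and in FOXP1 cells of CHP-212) that was lost on leaving out any of 10 of the 16 arrays and was 0.76 (adjusted p = 0.303) after normexp with the 5 backgrounds set to the median.

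Neurotransmitter receptors had 7 of 14 tested called, 2 higher and 5 lower, with a median of -0.95, and after normexp as planned 1 was higher and 1 lower, with a median of -0.23. CHRNB4, a nicotinic acetylcholine receptor subunit of autonomic ganglia, was at least 25.4-fold lower with FOXP1 in IMR-32 (adjusted p = 3.45e-10), and its value in CHP-212 of 0.95, measured on 2 GFP and 4 FOXP1 arrays, was not called. GRIN3A, an NMDA receptor subunit, rose 6.87-fold in IMR-32 and fell 2.8-fold in CHP-212 (line difference 4.26, adjusted p = 1.3e-07). GABRA5, a GABA receptor subunit, fell in both lines, with 2 of 4 FOXP1 arrays measuring it in IMR-32 and none in CHP-212, where it was at least 5.05-fold lower, so its line difference has no bound. GRIA3, an AMPA receptor subunit, rose in both lines, measured on 1 GFP array of IMR-32 and 2 GFP arrays of CHP-212, and its line difference of 2.50 (adjusted p = 0.00879) was 0.17 (adjusted p = 0.667) after normexp with the 5 backgrounds set to the median.

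**Figure D4:**
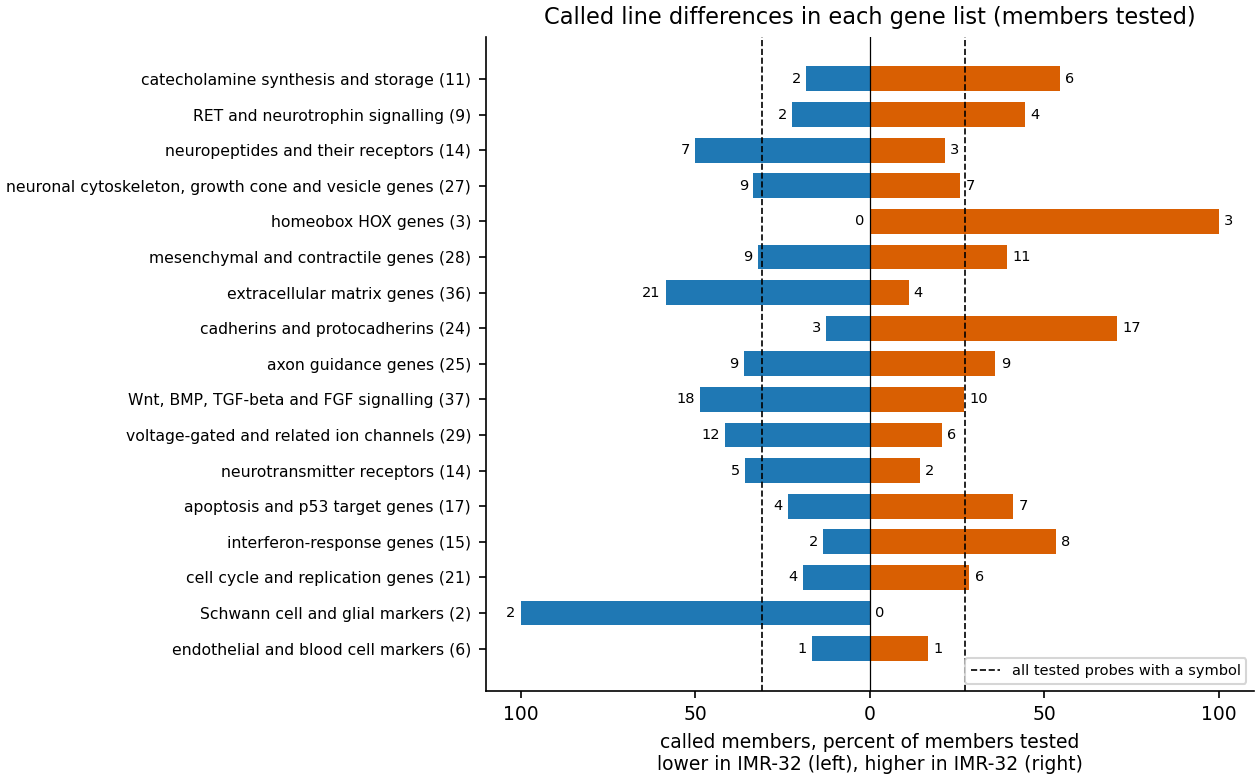
Called members of each gene list as percent of its members tested (number tested in parentheses), with those higher in IMR-32 to the right and those lower to the left, and the numbers of genes at the bar ends. Dashed lines mark the shares over all tested probes with a symbol, 27.4% higher and 31% lower, and the cadherin bar reaches furthest right and the matrix bar furthest left among lists with more than 3 members tested.

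Apoptosis and p53 target genes had 11 of 17 tested called, 7 higher and 4 lower, with a median of 0.97. AIFM2, a ferroptosis suppressor first described as a mitochondrial apoptosis factor, fell 9.11-fold in IMR-32 (line difference -3.71, adjusted p = 1.59e-06). SESN3, a sestrin that restrains TORC1, rose 2.49-fold in IMR-32 and fell 2.33-fold in CHP-212 (line difference 2.54, adjusted p = 6.5e-05). PHLDA1 rose 4.57-fold in IMR-32 (line difference 2.19, adjusted p = 0.0037). The line difference of PHLDA1 was 1.37 (adjusted p = 0.208) after normexp as planned and 1.09 (adjusted p = 0.0433) after the corrected normexp. From 0 and 12 h alone it was 2.08 (adjusted p = 0.0557). TRAF1, an adaptor of tumour necrosis factor receptors, fell 7.54-fold in IMR-32. It was measured on 2 of 4 arrays in each of the FOXP1 group of IMR-32 and both groups of CHP-212. The line difference of TRAF1 was -2.88 (adjusted p = 0.00324). It was not called with quantile normalization (-1.94, adjusted p = 0.114) or with the deposited values (-1.96, adjusted p = 0.103). After normexp as planned it was -0.81 (adjusted p = 0.836), with -0.54 in IMR-32. The corrected normexp gave -1.47 (adjusted p = 0.00977).

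Interferon-response genes had 10 of 15 tested called, 8 higher and 2 lower, with a median of 1.00. This lean was not kept after the corrected normexp, with 4 higher, 3 lower and a median of 0.46, and after normexp as planned 3 were higher and 0 lower. PARP12 rose 3.43-fold in IMR-32, and its value in CHP-212 of -0.75 was under the size threshold (line difference 2.53, adjusted p = 3.53e-06). For IFI44L the difference lay in CHP-212, where it fell 5.64-fold, with 2 of 4 FOXP1 arrays measuring it (line difference 2.65, adjusted p = 6.74e-05). The line difference of IFI44L was 1.88 (adjusted p = 0.144) after normexp as planned and 1.24 (adjusted p = 0.00424) after the corrected normexp. MICB, a ligand of the NKG2D receptor, fell 6.03-fold in CHP-212, measured on 2 of 4 arrays in its FOXP1 group and in both groups of IMR-32, and its line difference of 2.57 (adjusted p = 0.000302) was 0.72 (adjusted p = 0.11) after normexp with the 5 backgrounds set to the median. HERC5, an ISG15 ligase, was at least 15.4-fold lower with FOXP1 in IMR-32 (adjusted p = 9.57e-11).

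Cell cycle and replication genes had 10 of 21 tested called, 6 higher and 4 lower, with a median of 0.52. The direction was not kept, with 4 higher, 5 lower and a median of -0.02 after the corrected normexp, and 1 higher and 3 lower after normexp as planned. CDC7, a kinase that fires replication origins, rose 2.75-fold in IMR-32 (line difference 2.21, adjusted p = 0.00043). ODC1, the first enzyme of polyamine synthesis and a target of MYC proteins, fell 2.43-fold in IMR-32 (line difference -1.74, adjusted p = 0.000259). MYB, a transcription factor of progenitor cells, rose 2.49-fold in CHP-212, and in IMR-32 its value was just inside the size threshold and not called (adjusted p = 0.0181, line difference -2.31, adjusted p = 0.000701). DEPDC1 had a line difference of 2.14 (adjusted p = 0.047) with neither line called, which was lost on leaving out any of 12 of the 16 arrays.

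Markers of other cells were checked too. Of 11 Schwann cell and glial markers the table names 3, of which 2 were tested and both were called lower in IMR-32, with a median of -4.15, or -3.16 with dim groups at the lowest signal above background. After the corrected normexp the median was -1.82, and after normexp as planned it was -1.23 with 0 of 2 called. MBP, myelin basic protein, read -3.43, -2.89, -2.49 and -2.65 with GFP in IMR-32 and -8.84, -8.93, -8.10 and -8.82 with FOXP1, too dim on these 4. In CHP-212 it read -1.09, -0.95, -0.79 and -0.49 with GFP and -0.90, -1.75, -1.55 and -1.57 with FOXP1. MBP was at least 14.1-fold lower with FOXP1 in IMR-32 (adjusted p = 4.02e-11), and in CHP-212 its groups overlapped.

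SOX9, a transcription factor of neural crest, glia and cartilage, read -1.51, -1.65, -1.88 and -1.82 with GFP and -5.44, -4.84, -4.75 and -4.22 with FOXP1 in IMR-32. It fell 8.55-fold there and had a value of 0.01 in CHP-212 (line difference -3.10, adjusted p = 3.57e-06). The table names no probe for SOX10 or S100B, and CDH19 did not pass the filter on signal, so which cells carried MBP and SOX9 was not tested. Of 14 endothelial and blood cell markers 6 were tested and 2 called, 1 in each direction, with a median of -0.50, or 0.01 with 0 called after normexp as planned and -0.47 with 0 higher and 2 lower after the corrected normexp. CD72, a B cell receptor partner, fell in IMR-32 (adjusted p = 0.000436), by an amount not given because 1 of 4 FOXP1 arrays there measured it, beside 2 of 4 arrays of each CHP-212 group. LCP1, the actin bundler of leukocytes, rose in IMR-32 (adjusted p = 3.75e-05), measured on 1 GFP array and 4 FOXP1 arrays there and on 2 of 4 arrays of each CHP-212 group, and its line difference of 2.80 was 0.49 (adjusted p = 0.288) after normexp with the 5 backgrounds set to the median.

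Promoters were read for the forkhead core motif GTAAACA, in either orientation (TGTTTAC on the other strand), in the 250 bases before the start of each gene, from RefSeq sequences of build GRCh38.p14. It stood in 1046 of 35116 promoters of the table (2.98%), in 33 of 1570 of genes with a tested probe (2.1%), in 7 of 432 of those called higher in IMR-32 (1.62%), in 10 of 490 called lower (2.04%) and in 16 of 648 not called (2.47%). The shares of the called genes were not above that of all promoters. Of 69 named genes whose promoter was read, MYB and MBP hold a match, and the FOXP1 effect on both was called lower in IMR-32 than in CHP-212. They are shown because they are the matches among the named genes, 5′ to 3′ on the strand of the gene, with the match in capitals. The MYB window is chr6:135181058-135181307 on the plus strand, with the match beginning 14 bases before the start, and the MBP window is chr18:77132784-77133033 on the minus strand, with the match beginning 81 bases before the start. A match is a description of letters and not a binding site.
MYB: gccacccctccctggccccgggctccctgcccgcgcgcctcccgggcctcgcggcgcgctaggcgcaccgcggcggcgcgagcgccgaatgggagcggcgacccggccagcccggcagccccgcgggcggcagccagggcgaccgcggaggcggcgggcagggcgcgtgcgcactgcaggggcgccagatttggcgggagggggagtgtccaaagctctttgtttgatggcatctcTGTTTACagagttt
MBP: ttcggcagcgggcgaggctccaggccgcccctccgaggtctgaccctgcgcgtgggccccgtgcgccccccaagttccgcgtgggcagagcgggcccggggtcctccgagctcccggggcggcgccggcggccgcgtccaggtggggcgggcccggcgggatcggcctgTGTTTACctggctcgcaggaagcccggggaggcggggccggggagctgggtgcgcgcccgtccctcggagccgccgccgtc

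Most line differences called from later times were already present at 0 h. Each group has 1 array at 0 h, and the FOXP1 array of CHP-212 at that time had the lowest 75th percentile, with 53.9% of probes well above background. Of 3166 probes called from 24 and 72 h alone, 98.3% had the same sign at 0 and 12 h and 81.7% also a size of at least 1 there, against 23.5% of all tested probes with that size in either direction. From 12, 24 and 72 h alone, 2790 called probes had a value at 0 h. Of these, 2290 (82.1%) had the same sign and a size of at least 1 at 0 h. Among all tested probes 37.1% had that size at 0 h in either direction. RET differed by 4.43 at 0 h, 4.27 over 0 and 12 h and 3.69 over 24 and 72 h. A test of whether the line difference itself differed between the early and the late slides found 0 of 31444 probes at an adjusted p under 0.05 in limma, and 841 at an unadjusted p under 0.05, where chance gives 1572. With 2 arrays a group early and 2 late, this test says little about how stable the differences are.

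The called differences did not simply bring the lines together or apart. Among the 1755 probes called higher, the median gap between the lines (IMR-32 minus CHP-212) was -1.11 in GFP cells and 0.64 in FOXP1 cells, and the gap was smaller in FOXP1 cells for 57.3%. Among the 1890 called lower the median gap went from 0.65 to -1.09, and it was smaller in FOXP1 cells for 43.3%, beside 46.1% of all tested probes. The gap in FOXP1 cells minus that in GFP cells is the line difference itself. The calls thus fix the direction in which these medians moved. FAM43B and PCDHB2 are cases where IMR-32 rose to the level of CHP-212, and TBX1 and SSTR2 cases where the order of the lines changed.

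Signal limits the dim probes. With a group that all its arrays left dim, the line difference after the corrected normexp was also closer to 0 for SLITRK5 (3.02), CHRNB4 (-3.35), GLI3 (-4.31), HOOK1 (3.42), RSPO2 (-2.42), FZD1 (-1.82), SEMA3A (-1.57), HERC5 (-1.55) and MBP (-1.52). On the slide of CHP-212 at 0 and 12 h 53.9% to 60.4% of probes were well above background, against 78% to 81.5% on its slide at 24 and 72 h and 72.8% to 82.3% on those of IMR-32, so where 2 of 4 arrays of a CHP-212 group measured a gene named here, these were the arrays at 24 and 72 h. Each slide held arrays of 1 line, so slide and line cannot be told apart in a level, while every slide held GFP and FOXP1 arrays alike, and with slide as a block 4209 probes were called. After normexp as planned 24 of the 82 named genes with a called line difference lost the call: NPY, GFRA3, SHC4, VIPR1, HOXA10, PCDH7, SEMA3A, RSPO2, FZD1, KCNK1, CACNG8, CHRNB4, GABRA5, GRIA3, TRAF1, PHLDA1, HERC5, IFI44L, MICB, DEPDC1, MBP, SOX9, CD72 and LCP1. With the 5 backgrounds set to the median 5 lost it: CACNG8, GRIA3, HOXA10, LCP1 and MICB. From 0 and 12 h alone 15 lost it: DBH, CHGB, GFRA3, SHC4, ELAVL4, HOXA10, PCDH7, SEMA3A, CACNG8, GRIA3, PHLDA1, MYB, DEPDC1, CD72 and LCP1. In that order, their line differences from these readings were 1.28, 1.87, -2.39, -2.03, -2.54, 2.18, -5.36 and -3.87 for DBH to SEMA3A. For CACNG8 to LCP1 they were 2.98, 1.45, 2.08, -2.05, 2.72, -3.31 and 3.11. That fit has 2 arrays a group, so a lost call there does not show a smaller difference.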

How the data were processed

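The deposited scanner files hold one-colour Agilent Feature Extraction 10.7.3.1 output, in which the processed signal is an intensity, background-subtracted within the array and not normalized between arrays, per the file headers. The spot and local background medians in the same deposited files are intensities too. The deposited value table holds intensity that the authors quantile-normalized over the 24 arrays. Here log2 of the processed signal minus the 75th percentile of the array was used. Control spots and 257 outlier spots were left out, and 31446 probes were tested, each well above background in both lines on 4 or more of 8 arrays.

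The 16 arrays were fitted with limma 3.58.1 in R 4.3.3 as 4 group means without pairing. The contrast of the lines and both FOXP1 minus GFP contrasts were two-sided, with p-values adjusted over all probes tested (Benjamini-Hochberg). A call needed an adjusted p under 0.05 and at least 1 on the log2 scale. Python 3.11.15 with numpy 2.4.6, pandas 2.3.3, scipy 1.17.1 and matplotlib 3.10.9 made summaries and figures. The functions were tested on simulated data.

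The members and lists were chosen with earlier results of these data known. Named genes are FOXP1, RET, NPY and MAP2; genes the study names from the arrays, where tested; the 8 highest and 8 lowest line differences among called probes well above background on all 16 arrays with ratios of the lines that do not overlap; the 4 largest of each orientation among probes called in both lines with opposite signs; the 4 highest and 4 lowest among those called in both with the same sign and no called line difference; and up to 4 called members of each list with the largest line difference. Some genes that these rules pick are not reported here. Some genes the study names, DNER, DAPK1, PLCG2 and TNFSF10 among them, had no tested probe with a symbol. Symbols came from part of the study's supplementary table (3494 probes), of which 3339 matched RefSeq. Promoters of named genes on chromosome 8, NEFL and RSPO2 among them, were not read.

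Pairing of FOXP1 with GFP arrays by time was checked. Deviations from group means correlated at 0.39 to 0.61 across probes in IMR-32. In CHP-212 they correlated at 0.455 to 0.556 from 12 h on and at 0.0485 at 0 h. The main fit stayed unpaired, as in the study's methods, and its intervals and p-values are given unless another setting is named. Pairing by time was run as an alternative and called 4463 line differences in place of 3645. The alternatives were normexp (offset 50, on spot medians, since spot means are not in the files), normexp with far too high local backgrounds replaced, quantile normalization, the deposited values, stricter and no filter, blocks for time point and slide, all 24 arrays, subsets of times, each array left out and the methods' t-test. The number of arrays limits the precision.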

Additional observations from a re-analysis of the deposited data

Results flagged for a closer look

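In each group of 4 arrays, an array was marked where its gap to the nearest other array was a large part of the whole range of the group. Over the named genes measured on all 4 arrays this marked 11 of 287 groups, and chance marks about 1 in 20 groups, here 14.3.

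In IMR-32 with FOXP1, NEFL read 1.64 at 72 h (median of the others 2.13), FAM43B read 0.45 at 72 h (0.92), RPRML read -3.35 at 0 h (-2.71) and AIFM2 read -4.05 at 24 h (-4.38). In IMR-32 with GFP, FOXC1 read 2.09 at 12 h (1.51) and PCDHB16 read -5.55 at 0 h (-6.02).

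In CHP-212 with GFP, COL16A1 read 1.82 at 24 h (1.39), SPON2 read 1.69 at 24 h (1.34) and GRIN3A read 0.51 at 0 h (1.08). In CHP-212 with FOXP1, TUBB2B read -1.31 at 0 h (-2.05) and FZD1 read -0.063 at 0 h (-1.01).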

How the results depend on the processing

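For named genes, 979 of 1057 line differences under other settings kept sign and side of the threshold, 63 lost the call, 15 gained it and 0 changed sign. With single arrays left out the counts were 1441, 26, 5 and 0 of 1472. Of 82 called genes, 53 kept the call in every setting run, and 64 in every setting but normexp as planned.

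Calls for the line difference numbered 3645, and there were 1504 after normexp, 2300 with probes well above background on all 16 arrays (fewer probes tested), 1355 from 0 and 12 h alone and 3166 from 24 and 72 h alone. For IMR-32 the count of 3281 became 1836 after normexp, 2104 after normexp with the 5 backgrounds replaced and 1832 with the stricter filter. Of the 1836, 1156 were up and 680 down, and of the 2104, 1031 were up and 1073 down. For CHP-212 the count of 1062 became 329 after normexp, 561 with the 5 backgrounds replaced, 591 with the stricter filter, 420 from 0 and 12 h alone and 513 with the methods' t-test after Benjamini-Hochberg. Leaving out 1 array gave 3324 to 4317 for the line difference, 3094 to 3308 for IMR-32 and 861 to 1782 for CHP-212, the highest without the FOXP1 array at 72 h, where 821 were up and 961 down in place of 645 and 417. That array left out, the line difference had 2249 higher and 2068 lower in place of 1755 and 1890.

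Replacing the 5 backgrounds was chosen after seeing the data. It gave 2775 line differences, 1070 higher and 1705 lower, 2556 of them shared with the first setting, a median line difference over all tested probes of -0.19 against -0.02, and a share of higher calls in CHP-212 of 72.4% against 60.7% (77.8% after normexp as planned). Time point as a block called 4463 (2250 higher and 2213 lower), of which 3637 were shared. The test of early against late slides called 0 probes in each setting, with 438 at an unadjusted p under 0.05 after normexp, 1266 with the 5 backgrounds replaced and 369 of 21170 with the stricter filter. The cause of the remaining moves was not tested. The count of called members changed by a factor of over 1.5 for 15 of 17 gene lists after normexp, for 13 with the stricter filter and for 0 with the 5 backgrounds replaced.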
